A study of Mus musculus with 12 samples.

Results

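The mRNAs of the semaphorin and ephrin guidance systems were followed through RNA-Seq, ribosome footprint and RiboTag libraries of adult mouse brain. Members were the genes of the coding sequence (CDS) table whose symbols name a semaphorin of classes 3 to 7, a plexin (Plxna to Plxnd), a plexin domain containing gene (Plxdc), a neuropilin, an ephrin or an Eph receptor, with 1 symbol left out by the rule. This gave 54 of 20504 genes, of which 28 encode ligands (20 semaphorins and 8 ephrins), 24 encode receptors (9 plexins, 2 neuropilins, 8 EphA and 5 EphB receptors) and 2, Plxdc1 and Plxdc2, encode membrane proteins that share a domain with plexins and are counted with neither. All 54 were also in the table of exon counts.

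The study tested a ribosome profiling protocol that needs no ligation step, and used it to follow translation in the brain after acute inhibition of mTOR. All 6 mice were Camk2a-RiboTag animals, 3 months old, in which Cre recombinase under the Camk2a promoter, active mainly in excitatory forebrain neurons, switches the ribosomal protein gene Rpl22 to an HA-tagged form. Mice A and B are labelled untreated and, in the study's methods, received the vehicle, while AZD-8055, which blocks the ATP site of mTOR, was given to mice C and D at 100 mg/kg by oral gavage 1 h before they were killed. Each of these 4 mice gave an RNA-Seq library of poly(A) RNA and a footprint library from the same frontal lobe tissue, and for the untreated mice E and F the input lysate and the polysomes recovered with an antibody to HA (IP) were sequenced as RNA. Each group therefore held 2 mice. Each p-value rests on a spread estimated over all groups of a fit, with libraries of a mouse treated as separate unless stated.

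Semaphorins and ephrins are extracellular cues that steer growing axons, and in the adult brain the same molecules act at synapses, on glia and on blood vessels. Class 3 semaphorins are secreted and signal through neuropilins and plexins, the other classes here are bound to the membrane and mostly bind plexins directly, and ephrins are membrane-bound ligands of the Eph receptor tyrosine kinases that can also signal back into the cell that carries them. mTOR controls protein synthesis, most strongly for mRNAs whose transcripts begin with a terminal oligopyrimidine tract.

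The libraries held between 3503873 and 15585831 counts on coding sequences, and the members took 0.209% to 0.328% of them. The footprint libraries of mice B, C and D, at 3503873 to 4759336 counts, were the shallowest, and mouse A had 9259938. With at least 37 counts per library on average, 49 members could be tested in mice A to D; Efna1, Efna2, Efna4, Epha1 and Sema3b could not. In the exon counts of mice E and F, 51 were tested, and Efna4, Epha1 and Sema3b were not. The counts of Efna4 were close to 0 throughout, at 0.0 to 4.7 normalized counts in the 8 libraries of mice A to D.

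The translation efficiency (TE) of a gene is the ratio of its footprints to its RNA-Seq reads, and it was asked where ligands and receptors lie relative to the typical gene in untreated brain. Of the 49 members, 13 had footprints over 2-fold above and 11 over 2-fold below their RNA at an adjusted p under 0.05 (edgeR quasi-likelihood test, Benjamini-Hochberg over 11797 genes). The same calls were made for 13.2% and 17.6% of all genes. At any fold, 19 members were above and 20 below, against 36.5% and 37.3% of all genes. Ligands gave 7 above and 4 below of 24, and receptors 5 above and 7 below of 23. The median log2 TE relative to that of all genes was -0.10 for 23 ligands and -0.08 for 21 receptors. Members were thus found far to either side, with both classes centred near the typical gene. Footprint and RNA-Seq libraries were made by different protocols, so translation and protocol cannot be told apart in this ratio. Only RNA reads on coding sequences entered it, and members differed in how many RNA reads fell elsewhere. In mouse A, raw RNA counts on coding sequences and on exons were 62 and 686 for Sema5a and 62 and 585 for Efna5. They were 948 and 3002 for Epha4, 146 and 448 for Sema3a, 53 and 139 for Sema3d and 169 and 210 for Epha6, also high in TE. Among members low in TE, they were 510 and 522 for Plxnb3, 417 and 709 for Sema4g and 1360 and 1490 for Ephb6. For Sema6c they were 281 and 357, for Sema6b 2001 and 2486 and for Plxnb2 1163 and 1338. Whether this bears on TE was not tested.

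**Figure D1:**
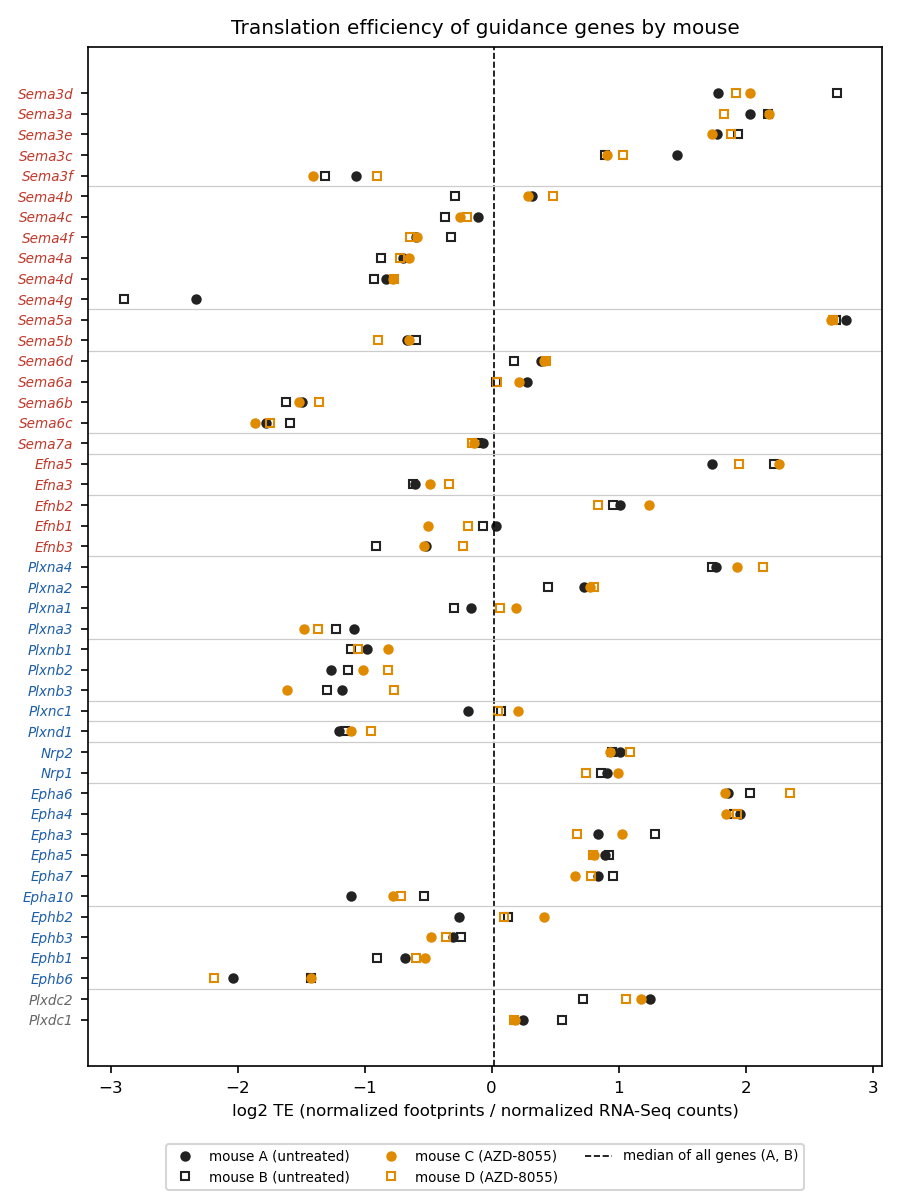
Log2 TE (horizontal axis, counts divided by size factors) of each member with at least 75 counts of each kind, by family, with 1 point per mouse; ligands are in red, receptors in blue and Plxdc genes in gray. Sema5a lies above 2.6 and Ephb6 below -1.4 in all 4 mice, and the dashed line is the median of all genes in mice A and B.

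The secreted class 3 semaphorins stood highest as a family, with a median log2 difference between footprints and RNA of 1.57 over 6 tested members. Sema3a, which repels many cortical axons through Nrp1 and plexin-A, had 108 and 80.9 normalized RNA counts and 442 and 366 normalized footprint counts in mice A and B. Footprints exceeded RNA in both mice, as the rule for naming genes required. The log2 difference was 2.15 ± 0.14 (SE, edgeR adjusted p = 1.99e-09). Sema3d had 39.2 and 25.4 RNA counts and 135 and 167 footprint counts. Its log2 difference was 2.26 ± 0.25 (edgeR adjusted p = 7.66e-07), though the per-mouse values of 1.79 and 2.72 were farther apart than those of Sema3a, at 2.03 and 2.18. Sema3e was also over 2-fold above at 1.91, as was Sema3c at 1.23. Sema3f, a ligand of Nrp2, went the other way at -1.16, and Sema3g, at -0.73 (edgeR adjusted p = 0.0218), was lower by less than 2-fold.

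The membrane-bound semaphorins held both extremes of the members. Sema5a, a transmembrane protein with thrombospondin repeats, had 45.9 and 59.0 RNA counts against 317 and 386 footprint counts in mice A and B. Its log2 difference of 2.76 ± 0.16 (edgeR adjusted p = 3.77e-10) was the highest of the members, and its TE stood at the 99.7 percentile of all genes. Its paralog Sema5b was at -0.58. Sema4g had 309 and 348 RNA counts against 61.5 and 46.9 footprint counts, the lowest log2 difference of the members at -2.52 ± 0.16 (edgeR adjusted p = 1.15e-09). The other 5 class 4 members lay between -0.84 and 0.05. Of the class 6 members, ligands of plexin-A, Sema6b had 1481 and 1600.1 RNA counts against 527 and 522 footprint counts, a log2 difference of -1.51 ± 0.08 (edgeR adjusted p = 9.22e-11). Sema6c had 208.0 and 239 RNA counts against 60.7 and 79.7 footprint counts, at -1.68 ± 0.16 (edgeR adjusted p = 1.38e-07). Both were over 2-fold below, whereas Sema6d was above by 0.32 (edgeR adjusted p = 0.00704), under the fold limit. Sema7a, which is tethered by a glycolipid anchor, was the ligand with the most footprints, at 1512 and 1273, and lay at -0.04 (edgeR adjusted p = 0.691).

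Among the ephrins, Efna5, a glycolipid-anchored ligand that helps to order sensory maps, had 45.9 and 30.2 RNA counts and 153 and 141 footprint counts in mice A and B. Its log2 difference was 2.00 ± 0.22 (edgeR adjusted p = 8.13e-07). Efna3, the other tested ephrin-A, was at -0.57. The transmembrane ephrin-B ligands divided the same way, with Efnb2 over 2-fold above at 1.05, Efnb1 at 0.03 (edgeR adjusted p = 0.859) and Efnb3 at -0.69.

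The plexins, the signaling receptors of semaphorins, ran from 1.79 to -1.21. Plxna4, which transduces Sema3a signals, had 249 and 245 RNA counts against 846 and 814 footprint counts in mice A and B, and lay at 1.79 ± 0.09 (edgeR adjusted p = 4.42e-11). Plxna2 was at 0.64, Plxna1 at -0.19 (edgeR adjusted p = 0.0555) and Plxna3 at -1.13, so the 4 plexin-A genes covered both sides. All 3 plexin-B genes were over 2-fold below in mice A and B, and of these 1, Plxnb3, also was in mice C and D. Plxnb3 had 378 and 412 RNA counts against 167 and 167 footprint counts and lay at -1.21 ± 0.17 (edgeR adjusted p = 1.26e-05). Plxnb2 had 861.0 and 882 RNA counts against 358 and 403 footprint counts and lay at -1.17 ± 0.09 (edgeR adjusted p = 1.26e-08), and Plxnb1 was at -1.01. Plxnd1 was at -1.14 and Plxnc1 at -0.02. The neuropilins, the co-receptors that bind class 3 semaphorins, were both above, Nrp2 at 1.01 and Nrp1 at 0.93, of which Nrp2 passed 2-fold.

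The 7 tested EphA receptors had a median log2 difference of 0.95 and the 5 EphB receptors one of -0.56. Epha4, which binds ephrins of both classes, was the receptor with the most footprints, 2716 and 2393 against 702 and 639 RNA counts in mice A and B. It lay at 1.97 ± 0.09 (edgeR adjusted p = 1.57e-11). Epha6 had 125 and 101 RNA counts against 455 and 413 footprint counts, at 1.99 ± 0.14 (edgeR adjusted p = 4.52e-09). Epha3 was also over 2-fold above at 1.09, while Epha5 and Epha7, at 0.95 and 0.94, were above by less. Epha8, at -1.41 with footprint counts of 21.3 and 64.1, and Epha10, an Eph protein without kinase activity, at -0.80, were below. No EphB receptor was above. Ephb6, which also lacks kinase activity, had 1007 and 1421 RNA counts against 246 and 530.0 footprint counts, and lay at -1.69 ± 0.31 (edgeR adjusted p = 0.000122). Of the Plxdc genes, Plxdc2 was at 1.02 and Plxdc1 at 0.43.

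Some ligands were set, as examples, beside a receptor they are known to bind. Ligand and receptor lay on opposite sides for Sema3e and Sema3f, and on the same side for Sema3a and Sema4d. Sema7a and its receptor were both near the typical gene. Other known pairs were not compared. Sema3e was at 1.91 and its direct receptor Plxnd1 at -1.14. Sema3f was at -1.16 and Nrp2 at 1.01. Sema3a, at 2.15, stood with Plxna4, at 1.79, and Nrp1, at 0.93. Sema4d and Plxnb1 were both below, at -0.84 and -1.01, and Sema7a and Plxnc1 were at -0.04 and -0.02.

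In the AZD-8055 mice C and D, footprints were over 2-fold above RNA for 12 members and over 2-fold below for 8 (edgeR; 12.0% and 17.3% of all genes). Across 45 members, the log2 TE of these mice and of mice A and B had a Pearson r of 0.988 and a Spearman rho of 0.982, a description over genes that share library protocols and transcript sequence. The widest difference was 0.368, for Sema4b, and 41 of the 45 lay on the same side of the all-gene median in both pairs of mice. The order of the members by mean TE was therefore nearly the same in both pairs of mice. Single animals were not correlated.

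Members that occupy more of the genome had higher TE. Over 46 members, log2 TE in mice A and B and the log10 of the gene's genomic span (RefSeq, GRCm38.p6) had a Pearson r of 0.748 and a Spearman rho of 0.745. The r was 0.745 for the 23 ligands and 0.792 for the 21 receptors, against 0.201 for 10233 genes in all. In mice C and D it was 0.757 for members and 0.216 for all genes. Points share libraries, and paralogs share sequence, so no p is given. None of the 12 members under 25 kb, with a median log2 TE of -0.93, lay above the all-gene median, whereas the median of all genes of that span was -0.12. Of the 11 members from 25 to 100 kb, 2 were above the all-gene median, and of the 23 over 100 kb, 18 were, with a median of 0.98 against 0.30 for all genes of that span. These limits of span were chosen after the values were seen.

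**Figure D2:**
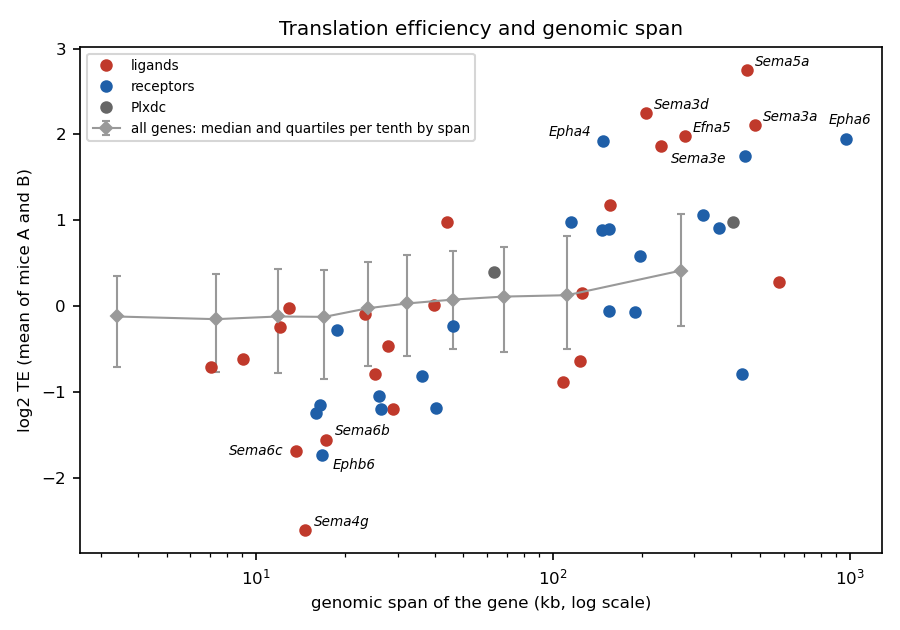
Log2 TE (vertical axis, mean of mice A and B) against genomic span (horizontal axis, kb, log scale) for 46 members, with the median and quartiles of all genes in each of 10 equal groups by span in gray. The members under 25 kb lie below 0, and the 7 labelled ones highest in TE, Sema5a among them, all span over 100 kb.

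The members at either end of TE differed in span. Sema5a lies on chromosome 15, at chr15:32244813-32696341, and spans 452 kb, whereas Sema4g, at chr19:44988743-45003397, spans 14.7 kb. Within a family the order was not uniform. Among the plexin-A genes, an example chosen after the values were seen, Plxna4 spans 444 kb, Plxna2 197 kb, Plxna1 46.3 kb and Plxna3 16.4 kb, which is the order of their log2 differences of 1.79, 0.64, -0.19 and -1.13. Among the EphB genes the longest, Ephb1 with 433 kb, had a log2 TE of -0.79, below Ephb2 with 189 kb at -0.07 and Ephb3 with 18.7 kb at -0.27. The 5 members over 100 kb that were not above the all-gene median were Ephb1, Ephb2, Plxnc1 (-0.06), Sema4d (-0.88) and Sema5b (-0.63), and the 2 from 25 to 100 kb that were above it were Efnb2 (0.98) and Plxdc1 (0.40). Transcript length, base composition, the length of untranslated regions and the share of RNA reads outside the coding sequence were not tested.

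The IP compares mRNA on tagged ribosomes of Camk2a-expressing cells with the mRNA of the whole tissue. In exon counts, 14 of 51 members were over 2-fold lower in the IP than in the input and 0 were over 2-fold higher (edgeR, adjusted over 13254 genes), against 21.8% and 11.7% of all genes. At any fold, 28 were lower and 11 higher, against 35.7% and 33.7% of all genes. At an unadjusted p under 0.05 (edgeR), 40 of 51 members and 9538 of 13254 genes differed. DESeq2 called 2 members, Plxdc1 and Sema4f, over 2-fold higher, and 2003 of 15681 genes. The median log2 difference was -0.45 over the members and -0.03 over all genes. Input and IP came from the same lysate of each mouse, so the ratio sets tagged ribosomes against the whole tissue. What lies behind a lower value was not tested. Dividing by total counts instead of size factors moved the all-gene median of log2 enrichment from 0.08 to -0.31. With total counts as the scaling of the edgeR fit, 19 of 51 members were called lower, against 3653 of 13254 genes.

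The markers gave the direction of the IP. The 12 markers of excitatory neurons summed to 153075 and 168925 normalized counts in the inputs and to 294615 and 326540 in the IP libraries. At an adjusted p under 0.05 (edgeR), 8 were higher and 1 lower. At the 2-fold limit used for members, 3 of the 12 were higher, and the median log2 difference of the 12 was 0.53. Oligodendrocyte, astrocyte and endothelial markers were lower in the IP for 10 of 10 in each list, and microglial markers for 11 of 12. Markers of oligodendrocyte precursors were lower for 7 of 8, and those of inhibitory neurons for 10 of 12. No listed marker was at 0 in any library.

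The lowest ratios of IP to input were those of plexins, class 3 semaphorins and Ephb4. Plxnb3, a plexin found in oligodendrocytes, fell from 727 and 633 normalized exon counts in the inputs of mice E and F to 53.3 and 58.8 in the IP, a log2 difference of -3.71 ± 0.16 (edgeR adjusted p = 5.2e-05). Sema3g, known from endothelial cells, had 197 and 165 counts in the inputs against 17.3 and 18.4 in the IP, at -3.44 ± 0.26 (edgeR adjusted p = 0.000112). The 2 groups did not overlap for either gene, but both were named as the lowest, and the share of all genes without overlap was not computed. Ephb4, a receptor of venous endothelium, had 184 and 135 counts in the inputs against 16.0 and 21.9 in the IP, at -3.17 ± 0.31 (edgeR adjusted p = 0.000252). Plxnb1, the receptor of Sema4d, had 2597 and 2223 counts in the inputs against 305 and 294 in the IP, at -3.13 ± 0.12 (edgeR adjusted p = 5.02e-05). All 3 plexin-B genes were therefore lower, Plxnb2 at -1.39. Sema3d had 218.0 and 184 counts in the inputs against 36.0 and 51.9 in the IP, at -2.30 ± 0.26 (edgeR adjusted p = 0.000409). Plxna3 had 1213 and 976 counts in the inputs against 266 and 273 in the IP, at -2.14 ± 0.14 (edgeR adjusted p = 9.08e-05). Sema4g (-1.97), Sema3c (-1.52), Plxdc2 (-1.46), Sema6d (-1.46), Sema6a (-1.32), Epha8 (-1.20) and Sema4d (-1.16) completed the 14. Whether other cell types account for these values was not tested.

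In the edgeR fit of exon counts, no member was over 2-fold higher in the IP. For Plxdc1 and Sema4f this depended on the scaling, since DESeq2 gave log2 differences of 1.06 and 1.00. Plxdc1 had 724 and 743 counts in the inputs against 1503 and 1561 in the IP, a log2 difference of 0.95 ± 0.10 (edgeR adjusted p = 0.000292). Sema4f had 1308 and 1190.3 counts in the inputs against 2511 and 2488 in the IP, at 0.88 ± 0.10 (edgeR adjusted p = 0.000382). Sema6b had 3048 and 2726 counts in the inputs against 5849 and 5636 in the IP, at 0.88 ± 0.10 (edgeR adjusted p = 0.000397). In all 3 genes the IP libraries lay above the inputs in both mice, as the rule for naming genes required. Sema7a had 3719 and 3741 counts in the inputs against 7254 and 7003 in the IP, at 0.82 ± 0.08 (edgeR adjusted p = 0.000292). Efna3 had 727 and 634 counts in the inputs against 1477 and 1084 in the IP, at 0.79 ± 0.17 (edgeR adjusted p = 0.00595), and Efna2 had 97.2 and 101 input counts against 161 and 158 IP counts, at 0.57 ± 0.19 (edgeR adjusted p = 0.0328). Of 26 tested ligands, 7 were higher and 14 lower at any fold, and of 23 receptors 3 were higher, Epha4, Epha7 and Ephb6, and 13 lower, beside 33.7% and 35.7% of all genes; the classes were not tested against each other. Of those higher, Efna5, Efnb2 and Epha4 had the opposite direction in CDS counts.

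**Figure D3:**
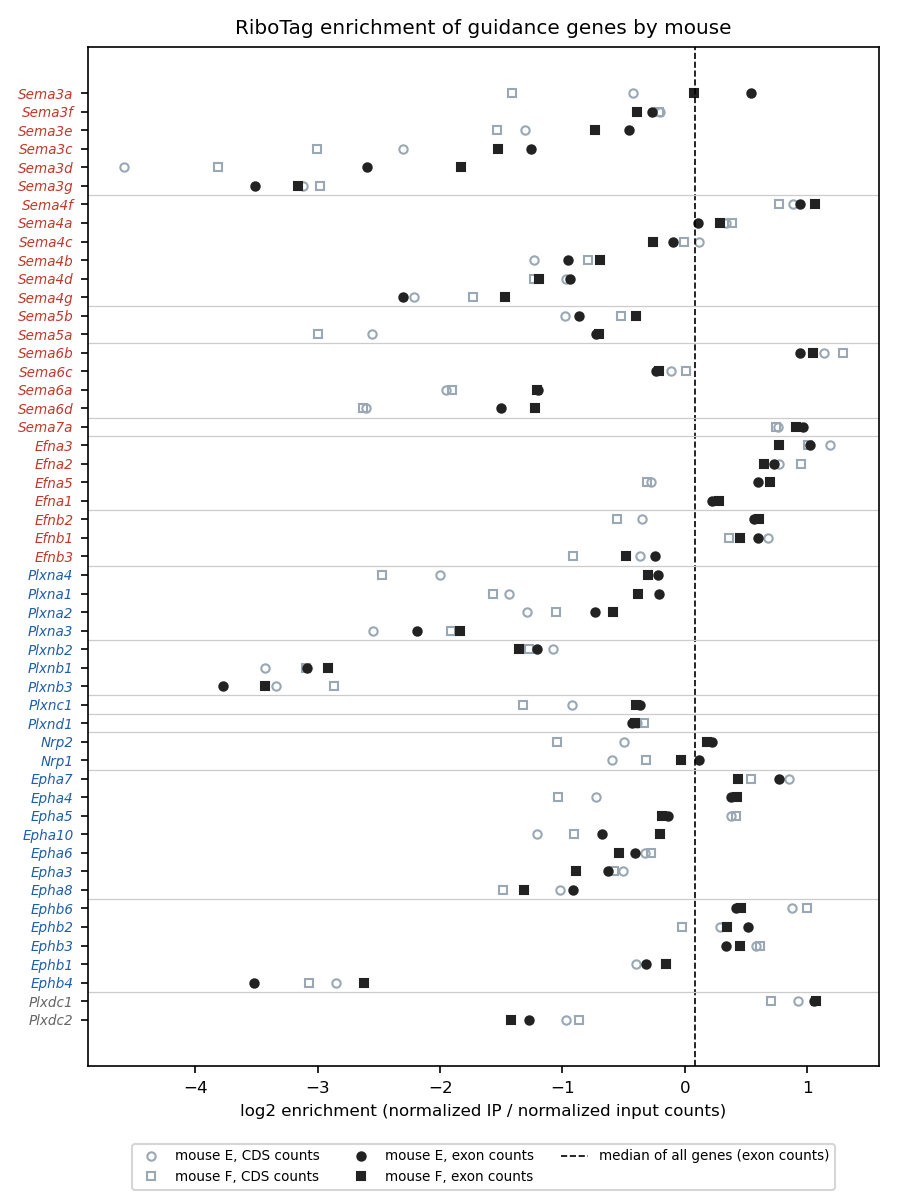
Log2 ratio of IP to input (horizontal axis, counts divided by size factors) of each member in mice E and F, from exon counts (filled) and CDS counts (open), by family; the dashed line is the median of all genes. Plxnb1, Plxnb3, Sema3g and Ephb4 lie below -2.5 in both mice by either count, whereas the 2 counts of Plxna4, Sema5a and Epha4 lie apart.

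For several members the result depended on which reads were counted. In CDS counts, 24 of 50 members were over 2-fold lower and 1, Sema6b at 1.08, was higher, against 26.1% and 20.4% of all genes. All 14 members called in exon counts were among the 24, and 10 more were lower in CDS counts alone. The log2 difference of Plxna4 was -0.38 in exon counts and -2.35 in CDS counts, that of Sema5a was -0.83 and -2.92, and that of Plxna1 was -0.40 and -1.62. In 6 of the 50 members the direction differed between the counts, among them Epha4 (0.28 and -1.01), Sema3a (0.16 and -1.06), Efnb2 (0.47 and -0.58), Efna5 (0.54 and -0.43) and Nrp2 (0.08 and -0.93). Epha5 went the opposite way, from -0.28 to 0.26. Exon counts exceeded CDS counts by a median factor over the members of 1.62 (mouse E) and 1.66 (mouse F) before the IP and of 2.23 and 2.68 after it. Over all genes the factor in mouse E was 1.47 before and 1.84 after the IP. The factor of Sema5a was 4.90 and 5.17 before the IP and 23.6 and 36.4 after it. Relatively more reads outside the coding sequence were therefore counted in the IP, and the cause was not tested.

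AZD-8055 was given to ask which mRNAs change in translation when mTOR is inhibited for 1 h. No member passed the test for RNA, footprints or TE, and under a looser filter, a sum of at least 1 count, 1 member, Efnb3, did in footprints. Of 49 members, 0 rose and 0 fell in RNA, against 0.017% and 0.0763% of all genes, 0 and 0 in footprints, against 0.297% and 1.22%, and 0 and 0 in TE, against 0.00848% and 0.297% (edgeR, TE also over 2-fold). DESeq2 called 0 members in each. At an unadjusted p under 0.05 (edgeR) there were 4 members for RNA, 5 for footprints and 3 for TE. Over all 11797 genes there were 833, 1707 and 796. The standard error of the footprint change ranged from 0.07 to 0.48 on the log2 scale with a median of 0.14. That of the TE change had a median of 0.19. Changes well above these errors could still go uncalled, as did that of Efnb3 footprints at 0.49 (edgeR adjusted p = 0.137).

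The lowest adjusted p for footprints was that of Efnb3, a transmembrane ephrin, with 258 and 261 normalized counts in mice A and B and 331 and 388 in mice C and D. Its log2 difference was 0.49 ± 0.15 (edgeR adjusted p = 0.137). The groups did not overlap, but the gene was picked for its low p, and the share of all genes without overlap was not computed. With genes of a sum of at least 1 count in the fit, the log2 difference of Efnb3 was 0.45 (edgeR adjusted p = 0.0350). Efnb1 had 111 and 102 footprint counts in mice A and B and 68.4 and 74.9 in mice C and D, at -0.56 ± 0.20 (edgeR adjusted p = 0.200). For Sema6b the footprint counts were 527 and 522 in mice A and B and 600.3 and 628 in mice C and D, at 0.23 ± 0.09 (edgeR adjusted p = 0.241). For RNA and for TE, Plxna1 had the lowest adjusted p, with 586 and 647 RNA counts in mice A and B and 506 and 541 in mice C and D. Its log2 difference was -0.24 ± 0.08 in RNA (edgeR adjusted p = 0.515) and 0.37 ± 0.12 in TE (edgeR adjusted p = 0.455). The median log2 difference in footprints was 0.12 over the members and 0.00 over all genes. It was positive for 38 of 49 members and 5977 of 11797 genes. Members share libraries, and they were not tested as a set.

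**Figure D4:**
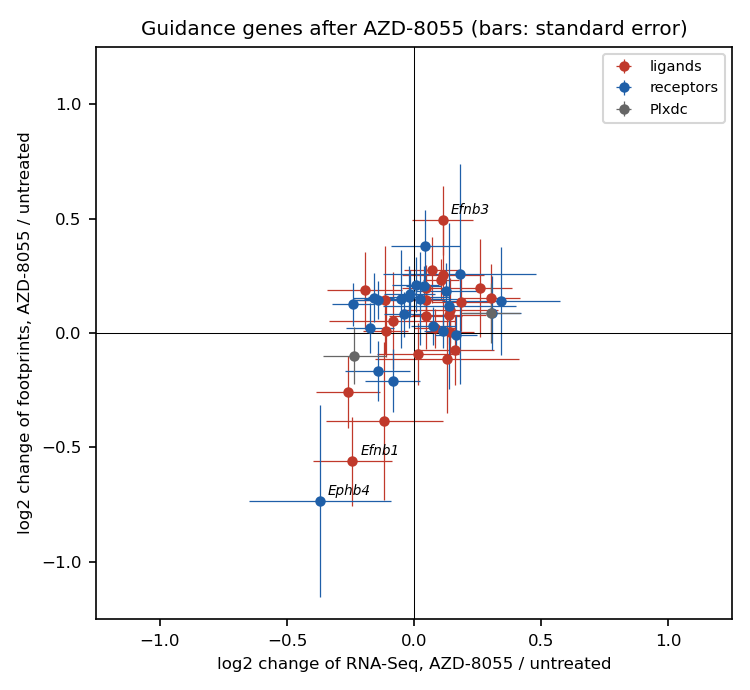
Log2 change after AZD-8055 in footprints (vertical axis) against that in RNA-Seq (horizontal axis) for the 49 tested members, with bars of 1 standard error. The members lie between -0.73 and 0.49 in footprints and between -0.37 and 0.34 in RNA, and none passed the test at the filter of 37 counts.

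The start sites of the members were searched because the mRNAs most sensitive to mTOR begin with a pyrimidine tract. A C followed by at least 5 pyrimidines (C or T), on the sense strand and within 3 bases of any RefSeq transcript start listed for the gene (GRCm38.p6), was present in 3 of the 46 members with a promoter in the table (6.52%), in 8.53% of 27025 genes and in 39.7% of 58 ribosomal protein genes, the best known carriers of such tracts. The 3 members with the tract are shown with the members highest and lowest in TE, each as the 10 bases before the start and the 20 from it on, with the tract in capitals, or the start base where there is none.
Efna5: ccagccactgCCTCCTTCTTCTCTCTCTCC
Nrp1: cgctcatCTTTTCattgctctctctccttc
Sema6b: agccgtgcaaggtCTTCCTgttttttggcc
Sema5a: ccgctcacccAgcgctggtctactcgctag
Sema4g: atggacccggAtcccagcgcaaaggtgagg
Efna5 is at chr17:62881298-62881327 and Sema6b at chr17:56133833-56133862, both on the minus strand, and the others are on the plus strand, Nrp1 at chr8:128359063-128359092, Sema5a at chr15:32244803-32244832 and Sema4g at chr19:44989334-44989363. The starts of Efna5 and Sema5a are the outer ends of these genes. Those of Nrp1, Sema4g and Sema6b lie 482, 601 and 6491 bases inside them, and for Sema6b it is 1 of 2 listed starts, of which the outer has no tract. A match is a description of the letters in this window, and after AZD-8055 the log2 TE of the carriers differed by 0.14 for Efna5, -0.02 for Nrp1 and 0.13 for Sema6b, none of which passed the test (lowest edgeR adjusted p = 0.894).

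Other genes of the guidance pathway were taken from lists that do not overlap the members. Of 13 tested ligands of other families (netrins, Slits, Flrt proteins), 5 had footprints over 2-fold above RNA and 2 below in untreated mice (edgeR), and of 17 other receptors, 6 were above and 5 below, beside 13.2% and 17.6% of all genes. The netrin receptors Unc5c, at 2.41, and Unc5a, at -1.43, stood at opposite ends, as did Dcc, at 1.96, and Robo3, at -3.22. Among 57 tested downstream effectors 11 were above, led by the collapsin response mediator Dpysl2 at 4.00, and 11 below. In the IP, 2 of 13 other ligands, 4 of 17 other receptors and 11 of 57 effectors were over 2-fold lower, and 5 effectors were higher, Cfl1, which severs actin filaments, at 1.32 among them, beside 21.8% and 11.7% of all genes. The lists were not tested against the members. After AZD-8055, the footprints of 1 effector, the adaptor Nck1, fell by 0.57 on the log2 scale (edgeR adjusted p = 0.0435), and no other listed pathway gene passed the test.

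Among members with at least 37 counts in each library compared, the median absolute log2 difference between mice A and B was 0.16 for RNA and 0.13 for footprints, and Ephb6 differed most in footprints. For Ephb6, footprints were 246 and 530.0 normalized counts in A and B and 583 and 247 in C and D, a log2 difference of -1.11 between A and B and of 1.24 between C and D. Its RNA was also lower in A and D, at 1007 and 1123, than in B and C, at 1421 and 1565. The low and high mice were split across the treatment groups. Epha8, with fewer raw counts than this limit, had 21.3 and 64.1 normalized footprint counts in A and B and 25.6 and 59.9 in C and D, a wider ratio than that of Ephb6 in A and B. The footprints of Plxnb3 differed by -0.97 on the log2 scale between C and D. In RNA the widest difference was that of Ephb4, with 39.2 and 71.3 counts in A and B, and between mice E and F it was that of Efnb1, with 422 and 234 exon counts in the inputs against 638 and 319 in the IP.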

How the data were processed

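Raw counts per gene on coding sequences (12 libraries) and on exons (RNA-Seq libraries) were deposited by the authors, who trimmed footprint reads, removed ribosomal RNA reads with Bowtie2, aligned to mm10 with TopHat2 and counted with HTSeq (tools and build from the submitters' processing notes and the study's methods). Versions are not given in the sources used here. Counts were tested with edgeR 4.0.16 (TMM, quasi-likelihood, R 4.3.3) on genes averaging at least 37 counts in the libraries fitted, in 1 fit of the 8 libraries of mice A to D and 1 of the 4 of mice E and F. Benjamini-Hochberg adjusted p-values under 0.05 over all genes were called, with a 2-fold limit for TE and IP. DESeq2 1.42.0 gave size factors for normalized counts and levels (TE: at least 75 counts of each kind over 2 mice) and an alternative test. The test scripts were tested on simulated data. TE in mice C and D was added after the other comparisons were set.

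Members and lists were chosen with earlier results of these data known. Named with values in every sample were the 6 members at each end of TE and of IP among those past the adjusted threshold and moving the same way in both mice, and all called after AZD-8055; Plxna4, Efnb1, Efnb3 and Plxna1 and the between-mouse examples were added after their values were seen. Libraries of a mouse share its letter and animal. Deviations from group means in the paired libraries had a Pearson r of 0.243 (A and B), 0.197 (C and D) and 0.548 (E and F) across genes. Gene positions and start sequences were from RefSeq (GRCm38.p6).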

Additional observations from a re-analysis of the deposited data

How the results depend on the processing

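With the mouse as a replicate block, which pairs libraries of an animal, 13 members were above and 10 below in TE and 14 lower in the IP, and no count moved by more than 1.5 times. Without a fold limit, 20 members were below in TE, and 11 were higher and 28 lower in the IP. Members higher in the IP numbered 2 with DESeq2 and 1 with a mean of at least 10 counts, with a sum of at least 1 count, or in CDS counts, where 24 were lower. With the sum of at least 1 count, 1 member, Efnb3, rose in footprints after AZD-8055 (edgeR adjusted p = 0.0350). Median log2 levels relative to all genes moved to -0.71 for ligands and -0.95 for receptors of the IP in CDS counts, and to -0.24 for receptors of TE at 200 counts. Leaving out a mouse gave -0.23 to -0.086 for ligands and -0.17 to -0.12 for receptors in TE, and -0.46 to -0.45 for receptors in the IP. In CDS counts the IP difference reversed for Epha4 (-1.01), Sema3a (-1.06), Nrp2 (-0.93), Efnb2 (-0.58), Efna5 (-0.43) and Epha5 (0.26), and with total counts for Nrp2 (-0.20) and Sema3a (-0.12); the cause was not tested. Leaving out a mouse in the IP leaves 1 library per group, so its counts of calls were not recomputed. The footprint libraries of 3503873 to 4759336 counts limit the members of low RNA, of which 5 were not tested.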
